A study of Mus musculus with 4 samples.

Results

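The genes described here were 10 members of the Bcl2 family, *Bcl2*, *Mcl1*, *Bcl2l1*, *Bcl2l11*, *Bcl2a1b*, *Bcl2a1d*, *Bax*, *Bak1*, *Bid* and *Bad*, taken by their symbols from the 27998 genes of the count tables. They were followed across T cell states and across both genotypes in virus-specific CD8+ T cells. The cells were H-2Db-GP33 tetramer-positive CD8+ T cells sorted from spleen, and came from 2 mixed bone marrow chimeras on day 8 p.i. with LCMV Armstrong, a virus strain that causes an acute infection. Each chimera was a *Rag1*-/- host, irradiated below the lethal dose, that had received WT (CD45.1, B6.SJL) and *Bcl3*-/- (CD45.2) marrow, all on a C57BL/6 background, and it gave 1 library per genotype. The 4 libraries are called WT1 and KO1 (chimera 1) and WT2 and KO2 (chimera 2), and values for the 4 libraries are given in the order WT1, WT2, KO1 and KO2. *Bcl3* encodes an atypical IκB protein that acts with NF-κB subunits in the nucleus, and its deletion was germline, so that every marrow-derived *Bcl3*-/- cell lacked it. With 1 animal per chimera, n was 2 libraries per genotype, and the *Rag1*-/- host lacks mature T and B cells of its own but keeps its other cells.

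The Bcl2 family sets the threshold for mitochondrial apoptosis. Guardian proteins (Bcl-2, Mcl-1, Bcl-xL, encoded by *Bcl2l1*, and the A1 proteins, encoded by the *Bcl2a1* genes) bind and restrain the effectors Bax and Bak, which otherwise permeabilize the outer mitochondrial membrane, and BH3-only proteins such as Bim (encoded by *Bcl2l11*), Bid and Bad neutralize the guardians or activate the effectors. After an acute infection most effector CD8+ T cells die by this route, with Bim as a main trigger, whereas cells that receive IL-7 and IL-15 signals keep Bcl-2 and live on as memory cells.

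The shared piece of sequence through which these proteins meet is the BH3 motif, and its coding sequence is shown for the members in which it was found. Each line gives 42 bases of the longest coding transcript (GENCODE vM21, GRCm38, which is mm10), read 5′ to 3′ on the strand of the gene, and the capitals mark the 6 codons from the leucine to the aspartate of the motif.
Bcl2: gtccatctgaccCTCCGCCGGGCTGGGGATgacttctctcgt
Mcl1: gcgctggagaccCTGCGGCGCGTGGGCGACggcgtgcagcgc
Bcl2l1: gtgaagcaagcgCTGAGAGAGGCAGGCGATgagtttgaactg
Bcl2l11: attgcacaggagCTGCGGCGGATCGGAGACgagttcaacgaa
Bax: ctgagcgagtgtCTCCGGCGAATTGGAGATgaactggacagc
Bak1: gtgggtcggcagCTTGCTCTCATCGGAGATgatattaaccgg
Bid: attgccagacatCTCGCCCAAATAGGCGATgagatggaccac
Bad: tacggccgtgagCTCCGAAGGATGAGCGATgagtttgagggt
The search was for a leucine, any 3 residues, then a glycine, alanine or serine, then an aspartate, and it gave 1 match in each of these 8 members and none in *Bcl2a1b* or *Bcl2a1d*. Of 8822 mouse protein-coding genes whose longest coding sequence had at most 331 codons, the length of *Mcl1*, 17.5% held such a match, so the letters alone do not mark the family. The capitals began at codon 94 in *Bcl2*, 194 in *Mcl1*, 90 in *Bcl2l1*, 150 in *Bcl2l11*, 63 in *Bax*, 76 in *Bak1*, 90 in *Bid* and 151 in *Bad*. In the same build, *Bcl2* lies at chr1:106538178-106714274 (minus strand), *Bcl2l11* at chr2:128126038-128162547 (plus), *Bcl2l1* at chr2:152780668-152831728 (minus), *Mcl1* at chr3:95658788-95663176 (plus), *Bid* at chr6:120891930-120916853 (minus), *Bax* at chr7:45461697-45466898 (minus), *Bcl2a1d* at chr9:88723285-88731914 (minus), *Bcl2a1b* at chr9:89199209-89207827 (plus), *Bak1* at chr17:27019810-27029009 (minus) and *Bad* at chr19:6941861-6951899 (plus).

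UMI counts of 3′ ends, in which PCR copies of a captured molecule count once, were summed over cells, that is, barcodes in which 500 or more genes were found and mitochondrial genes took no more than 10% of the UMIs. This left 4941, 8092, 5366 and 6494 cells with medians of 3571, 2019, 3620.5 and 2948 UMIs per cell, out of 21193300, 20358780, 22922219 and 22672343 UMIs in the libraries. WT2 was thus the shallowest library per cell, and all levels are given as CPM, a gene's UMIs relative to every UMI of the same sum. Markers of the sorted cells were present, since *Cd8a*, *Cd8b1*, *Cd3d*, *Cd3e* and *Cd3g* summed to 5648, 5393, 5971 and 6016 CPM. Cells of other types were nevertheless present, since clusters led by B cell, plasma cell or myeloid genes held 6.33%, 4.65%, 7.83% and 6.76% of the cells and 8.37%, 8.93%, 9.13% and 9.69% of their UMIs. In all cells, the B cell list summed to 1808, 1957, 1954 and 1908 CPM (led by *Cd74*), the plasma cell list to 1002, 1106, 849 and 1134 CPM (*Jchain*), the myeloid list to 2678, 2539, 3607 and 3839 CPM, the erythroid list to 49.2, 77.1, 7.93 and 187 CPM, and *Cd4*, *Cd40lg* and *Foxp3* to 4.51, 4.16, 3.85 and 4.37 CPM. *Lyz2* led the myeloid list in WT and *S100a8* in the *Bcl3*-/- libraries, where that list was higher. The libraries shared 37 to 63 cell barcodes per pair, at most 1.12% of the smaller library, where 36.0 to 71.3 would be met at random.

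*Bcl3* itself was measured at 33.2, 108, 27.6 and 86.6 CPM. The log2 fold change (*Bcl3*-/- over WT) was -0.33 (adjusted p = 0.837, edgeR quasi-likelihood test with Benjamini-Hochberg adjustment) and -0.31 (adjusted p = 0.0201) with chimera as a replicate block. Which part of the gene the allele lacks is not given in the sources used here, so 3′ counts of *Bcl3* do not check the genotype labels.

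Summed over all cells, no member was shown to differ between the genotypes unless the libraries were paired by animal. Without pairing, none of the 10 members was called between *Bcl3*-/- and WT (edgeR, adjusted p under 0.05) and none had an unadjusted p under 0.05, where 42 of the 11566 genes tested were called (0.363%). The median log2 fold change was 0.03 over the members and 0.01 over all genes tested. DESeq2 called none of the members either, and 195 genes in all. With chimera as a replicate block, which sets each *Bcl3*-/- library against the WT library of the same animal, 1 member was called lower, *Bcl2a1d*, and 1116 genes were called in all (9.65%), so that a member called there is not rare. In sums over cells, fewer cells of a type and less RNA per cell cannot be told apart.

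Among the guardians, *Bcl2* was measured at 134.4, 130.6, 131.5 and 121.4 CPM. The genotypes overlapped, with KO2 lowest, and the log2 fold change was -0.08 ± 0.10 (SE; adjusted p = 0.762). *Mcl1*, a short-lived guardian that most T cells need, was at 91.9, 92.9, 103.0 and 106.4 CPM. Both *Bcl3*-/- libraries lay above both WT libraries, a lack of overlap shared in either direction by 44.5% of the 11566 genes tested, with a log2 fold change of 0.16 ± 0.08 (SE) that did not pass the test (adjusted p = 0.393, and 0.154 with the replicate block). With equal numbers of cells thinned to 1000 UMIs it was 0.39 (adjusted p = 0.234), and there it passed the test with the block (adjusted p = 0.00948). *Mcl1* is also a gene of the other cells in these libraries: 18.7% of its UMIs came from the non-T clusters. In T cell clusters alone it was at 81.8, 81.2, 94.20 and 95.01 CPM, so the groups did not overlap there either, and the log2 ratios within chimera 1 and chimera 2 were 0.20 and 0.23. *Bcl2l1* was at 34.0, 50.01, 35.8 and 53.0 CPM, which separates the chimeras rather than the genotypes (log2 fold change 0.06 ± 0.20, SE, adjusted p = 0.914).

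The A1 guardians are encoded by near-identical copies on chromosome 9, which NF-κB is known to induce in lymphocytes. The coding sequences of *Bcl2a1b* and *Bcl2a1d* are both 516 bases long and share 510 of them (98.8%). The first 60 bases are shown because they hold 2 of the 6 differences, here in capitals.
Bcl2a1b: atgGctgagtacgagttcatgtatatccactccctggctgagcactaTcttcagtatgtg
Bcl2a1d: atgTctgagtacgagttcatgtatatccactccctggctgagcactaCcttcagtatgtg
Counted from the A of the start codon, with the *Bcl2a1b* base first, the differences are G4T, T48C, A94C, G312A, C381G and T490A. Of all 98-base windows, the length of the sequenced read, in the last 500 bases of each transcript, 61.5% in *Bcl2a1b* and 58.8% in *Bcl2a1d* also occur in another gene, against none in the other 8 members. Reads from those windows cannot be given to 1 copy by sequence alone, and what this did to the counts of the A1 genes was not tested. *Bcl2a1b* was at 157.0, 148.3, 172.0 and 147.0 CPM, with overlapping genotypes and a log2 fold change of 0.05 ± 0.13 (SE, adjusted p = 0.882). *Bcl2a1d* was at 137.0, 103.5, 111.4 and 79.8 CPM, and each *Bcl3*-/- library lay below the WT library of its own chimera while the genotypes overlapped. Its log2 fold change was -0.34 ± 0.21 (SE, adjusted p = 0.488). With the replicate block it was called lower in *Bcl3*-/- cells, at -0.35 ± 0.07 (SE, adjusted p = 0.0062, edgeR with Benjamini-Hochberg adjustment). Without the block, leaving out 1 library moved it from -0.079 (without KO2) and -0.096 (without WT1) to -0.56 (without WT2) and -0.66 (without KO1), none of them called. The log2 ratios in chimeras 1 and 2 were -0.30 and -0.38. T cell clusters alone gave 137.2, 102.7, 112.5 and 81.4 CPM, and 8.49% of its UMIs came from non-T clusters.

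The pore-forming effectors hardly varied. *Bax* was at 248.7, 246.1, 233.6 and 242.2 CPM, lower in both *Bcl3*-/- libraries, and *Bak1* at 124.4, 123.8, 127.3 and 129.7 CPM, higher in both. The gaps were small beside the error of the fit, with log2 fold changes of -0.07 ± 0.09 (SE, adjusted p = 0.747) for *Bax* and 0.03 ± 0.09 (SE, adjusted p = 0.886) for *Bak1*. Of the BH3-only genes, *Bcl2l11* was at 27.7, 28.8, 24.8 and 29.3 CPM (log2 fold change -0.08 ± 0.10, SE, adjusted p = 0.733). *Bid*, whose product links death receptors to mitochondria, was at 26.3, 26.5, 26.8 and 27.4 CPM (0.02 ± 0.09, SE, adjusted p = 0.945). *Bad*, whose product is kept inactive by survival kinases, was at 45.6, 49.0, 50.6 and 48.8 CPM (0.06 ± 0.09, SE, adjusted p = 0.818). The ratio of the highest to the lowest library lay between 1.04 (*Bid*) and 1.18 (*Bcl2l11*) in 8 members, and was 1.56 for *Bcl2l1* and 1.72 for *Bcl2a1d*.

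**Figure D1:**
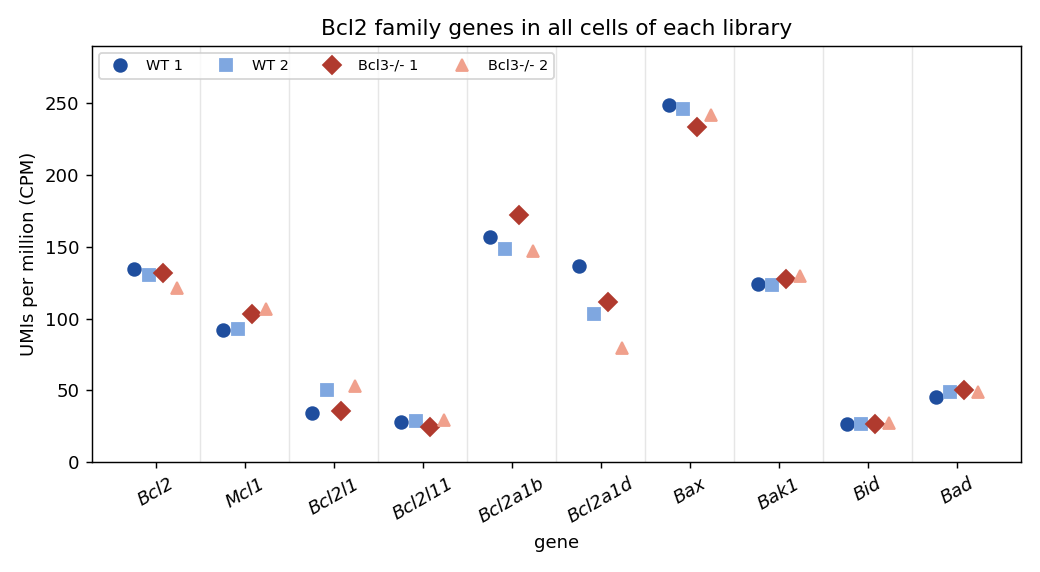
CPM (vertical axis) of each of the 10 genes (horizontal axis) over all cells of WT1, WT2, *Bcl3*-/- 1 and *Bcl3*-/- 2, with 1 point per library. *Bcl2l1* and *Bcl2a1d* spread the most, by 1.56-fold and 1.72-fold from the lowest to the highest library, and the genotypes do not overlap for 4 of the 10 (*Mcl1*, *Bax*, *Bak1* and *Bid*), a share near the 44.5% of all genes tested.

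For *Bcl2l1* and *Bcl2a1d*, the libraries separated by animal. In a comparison of chimera 2 with chimera 1 that was added after the data were seen, with genotype as a term, 2 of the 10 members were called and 366 of 11566 genes (3.16%). *Bcl2l1* was higher in chimera 2, by 0.48 ± 0.08 (SE) on the log2 scale (adjusted p = 0.00412), and *Bcl2a1d* was lower, by -0.52 ± 0.07 (adjusted p = 0.000699, edgeR with Benjamini-Hochberg adjustment). Without the genotype term 3 genes were called (0.0259%) and none of them was a member. *Bcl2l1* was higher and *Bcl2a1d* lower in both libraries of chimera 2 than in both of chimera 1 in each of the 5 classes of T cell clusters described next. In T cell clusters alone both genes were again called, at 0.54 and -0.51, where 610 of 11101 genes were called (5.5%). The animal and anything that was processed with it cannot be told apart.

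T cell states were taken from clusters of each library, made without the Bcl2 family genes, so that the members did not shape them directly. Clusters led by *S1pr5*, *Gzma*, *Zeb2*, *Klrg1* and *Cx3cr1* are called terminal effector-like (248, 902, 1161 and 1046 cells), those led by cell cycle genes cycling-like (801, 1055, 524 and 690 cells) and those led by *Ifit1*, *Ifit3* and *Isg15* interferon-stimulated-like (374, 505, 357 and 373 cells). Clusters that met no list of markers are called unnamed and were the largest class (2893, 4788, 2783 and 3751 cells). In each library 1 cluster was led by *Tcf7*, *Ccr7*, *Dapl1* and *Id3* (312, 466, 121 and 195 cells: cluster 6 of WT1, 8 of WT2, 9 of KO1 and 8 of KO2). Genes of the memory precursor list and of the naive T cell list were both among its 10 leading genes, 4, 6, 4 and 5 against 5, 5, 6 and 6, so it is called the *Tcf7*-*Ccr7* cluster and not by a cell type. *Cd4* was among the leading genes of this cluster in KO1 and measured 19.1, 22.4, 48.0 and 22.6 CPM in the 4 clusters. Since cells were grouped by their own transcripts, levels across states are a description without a test.

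*Bcl2* was the member with the widest range across states. It was highest in the *Tcf7*-*Ccr7* clusters, at 308.6, 339.8, 305.0 and 362.3 CPM, and lowest in cycling-like cells, at 68.3, 63.5, 64.3 and 52.0 CPM, a ratio of means of 5.30. Means were 329 ± 27.2 CPM (SD, n = 4 libraries) in the *Tcf7*-*Ccr7* clusters, 160 ± 39.5 in terminal effector-like, 144 ± 11.9 in unnamed, 113 ± 14.3 in interferon-stimulated-like and 62.0 ± 7.003 in cycling-like cells. The ranges over the 4 libraries did not overlap between neighbours in this order, except for terminal effector-like and unnamed cells, where the former was higher in 3 of 4 libraries. With the libraries clustered together that pair changed places, at 143 CPM in unnamed and 136 CPM in terminal effector-like cells, with unnamed cells higher in 3 of 4 libraries. Per cell, the *Tcf7*-*Ccr7* clusters held 1.14, 0.749, 1.21 and 1.15 *Bcl2* UMIs and cycling-like cells 0.404, 0.213, 0.399 and 0.245, although the cycling-like cells held more UMIs in all (5925, 3357, 6205 and 4711 per cell, against 3687, 2204, 3956 and 3170). Against the other classes the gap per cell was smaller. Interferon-stimulated-like cells held 0.460, 0.263, 0.367 and 0.340 *Bcl2* UMIs per cell, below cycling-like cells in KO1. Terminal effector-like cells held 0.593, 0.334, 0.407 and 0.369, and unnamed cells 0.534, 0.288, 0.618 and 0.413. Against these classes, part of the lower CPM of cycling-like cells was thus a smaller share of more UMIs. A lower count per cell remained against terminal effector-like and unnamed cells in every library.

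Cluster by cluster, the *Tcf7*-*Ccr7* cluster was the highest for *Bcl2* and a cycling-like cluster the lowest in 4 of 4 libraries, with ratios of 5.39, 6.11, 6.00 and 7.20 over 10, 9, 10 and 11 T cell clusters. *Il7r*, the IL-7 receptor α chain through which *Bcl2* is known to be maintained, was among the leading genes of the next highest cluster in chimera 1 but not in chimera 2. In chimera 1 these were cluster 2 of WT1, led by *Il7r* (235.8 CPM of *Bcl2*, 124.9 of *Il7r*), and cluster 2 of KO1, led by *Tcf7* and *Il7r* (202.5 and 97.5 CPM), and *Bcl2* was itself among the 10 leading genes of both. In chimera 2 they were cluster 1 of WT2, led by *Pik3ip1* (179.1 CPM of *Bcl2*, 52.3 of *Il7r*, with the terminal effector-like cluster close behind at 178.9 CPM of *Bcl2*), and cluster 5 of KO2, led by *Cd7* and *Madd* (175.6 and 34.8 CPM). *Il7r* was at 121.7, 121.7, 85.6 and 131.0 CPM in the *Tcf7*-*Ccr7* clusters, 54.8, 28.5, 21.3 and 7.08 CPM in terminal effector-like cells and 17.1, 11.6, 14.1 and 9.23 CPM in cycling-like cells. With the libraries clustered together an unnamed cluster led by *Il7r* was found in each library. The rank of its *Bcl2* was not computed, so whether the contrast between the chimeras holds in that clustering was not tested.

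**Figure D2:**
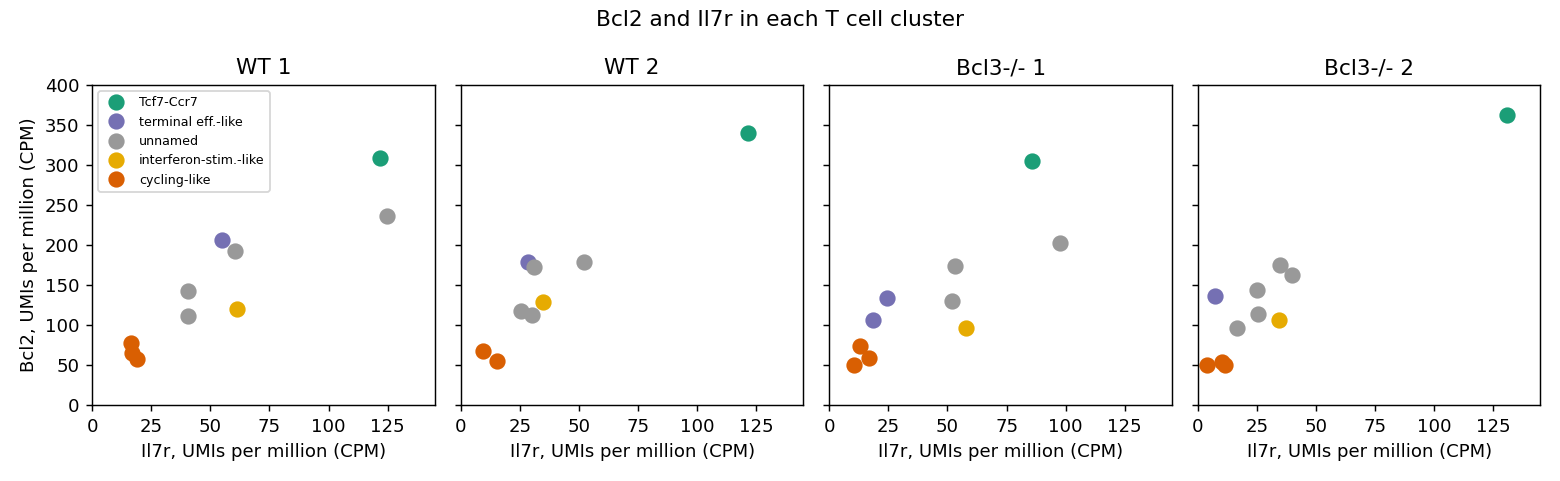
*Bcl2* (vertical axis) against *Il7r* (horizontal axis), both in CPM, with 1 point for each T cell cluster, coloured by class, and 1 panel per library. The *Tcf7*-*Ccr7* cluster has the most *Bcl2* in all 4 panels (305.0 to 362.3 CPM) and cycling-like clusters sit at the lower left.

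*Bcl2l11*, which encodes the antagonist Bim, was lowest in the same class as *Bcl2* and had its highest mean in the *Tcf7*-*Ccr7* clusters, a lead that depended on the clustering. It was at 33.9, 30.2, 52.2 and 43.7 CPM in the *Tcf7*-*Ccr7* clusters and at 19.8, 14.4, 16.9 and 15.7 CPM in cycling-like cells, a ratio of means of 2.39. In between, interferon-stimulated-like cells (34.1, 40.8, 30.3 and 33.4 CPM) lay above unnamed cells (25.1, 28.7, 21.7 and 28.5 CPM) in 4 of 4 libraries without overlap, and terminal effector-like cells followed at 19.7, 22.0, 16.5 and 19.1 CPM. The *Tcf7*-*Ccr7* and interferon-stimulated-like classes did not differ beyond their spread, with the latter higher in both WT libraries and also on average when the libraries were clustered together (36.8 against 36.1 CPM), nor did terminal effector-like and cycling-like cells, and each library's *Tcf7*-*Ccr7* value rests on only 25 to 39 UMIs. The number of *Bcl2* UMIs per *Bcl2l11* UMI was 9.10, 11.3, 5.84 and 8.30 in the *Tcf7*-*Ccr7* clusters, 10.5, 8.14, 7.26 and 7.15 in terminal effector-like, 5.88, 4.71, 7.35 and 4.71 in unnamed, 3.45, 4.41, 3.80 and 3.31 in cycling-like and 3.51, 3.17, 3.20 and 3.18 in interferon-stimulated-like cells. The ratio of *Bcl2* to *Bcl2l11* was thus lower in the cycling-like and interferon-stimulated-like classes than in the other 3 in every library. The WT1 value in terminal effector-like cells rests on 0.0565 *Bcl2l11* UMIs per cell in 248 cells. Other guardians were left out of this ratio. *Bcl2a1b* (201 CPM), *Bcl2a1d* (132) and *Bcl2l1* (49.2) had their highest class mean in interferon-stimulated-like cells, while *Mcl1* (76.0) and *Bcl2l1* (35.7) were lowest in cycling-like cells. Non-T clusters held 19.7% of the *Bcl2l11* UMIs of the libraries but no part of these class sums.

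The A1 genes had their highest mean in interferon-stimulated-like cells, although with the libraries clustered together *Bcl2a1d* had it in cycling-like cells (119 against 114 CPM). *Bcl2a1b* was at 204.7, 171.9, 248.6 and 178.9 CPM there, above unnamed cells (148.8, 150.1, 180.7 and 151.2 CPM) in 4 of 4 libraries with overlapping ranges, and lowest in terminal effector-like cells (101.1, 114.1, 139.0 and 123.8 CPM), a ratio of means of 1.68. The *Ifit1*-led cluster was the highest of all T cell clusters for *Bcl2a1b* in 4 of 4 libraries. *Bcl2a1d* had means of 132 ± 32.9 CPM (SD, n = 4) in interferon-stimulated-like cells and 77.7 ± 13.1 CPM in terminal effector-like cells, and its highest cluster was an *Ifit1*-led one only in KO1 and a *Ccnb2*-led one in the other 3 libraries.

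Across the classes, *Bak1* ran against *Bcl2*. It was highest in cycling-like cells (148.1, 149.9, 153.8 and 157.2 CPM) and lowest in the *Tcf7*-*Ccr7* clusters (107.8, 93.5, 94.0 and 93.8 CPM), which did not overlap, while neighbouring classes in between overlapped. The cluster led by *Ccnb2*, *Cdc20* and *Cenpa*, genes of mitosis, had the most *Bak1* in each library, at 179.6, 180.0, 194.0 and 189.7 CPM. The cluster with the least was the *Tcf7*-*Ccr7* one in WT2 and KO1, but an unnamed one in WT1 (94.4 CPM) and KO2 (68.2 CPM). The other effector, *Bax*, differed by only 1.09-fold between its highest and lowest class mean (248 CPM in unnamed and 228 CPM in interferon-stimulated-like cells). *Mcl1* was likewise even, with means of 97.7 CPM in the *Tcf7*-*Ccr7* clusters and 76.0 CPM in cycling-like cells (1.29-fold) and overlap between all neighbours. Ratios of the highest to the lowest class mean were 1.38 for *Bcl2l1*, 1.46 for *Bid* and 1.21 for *Bad*, again with overlap between all neighbours, and the low end of *Bid* rests on WT1, where terminal effector-like cells held 8.43 CPM against 19.5 to 26.4 CPM in the other libraries.

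**Figure D3:**
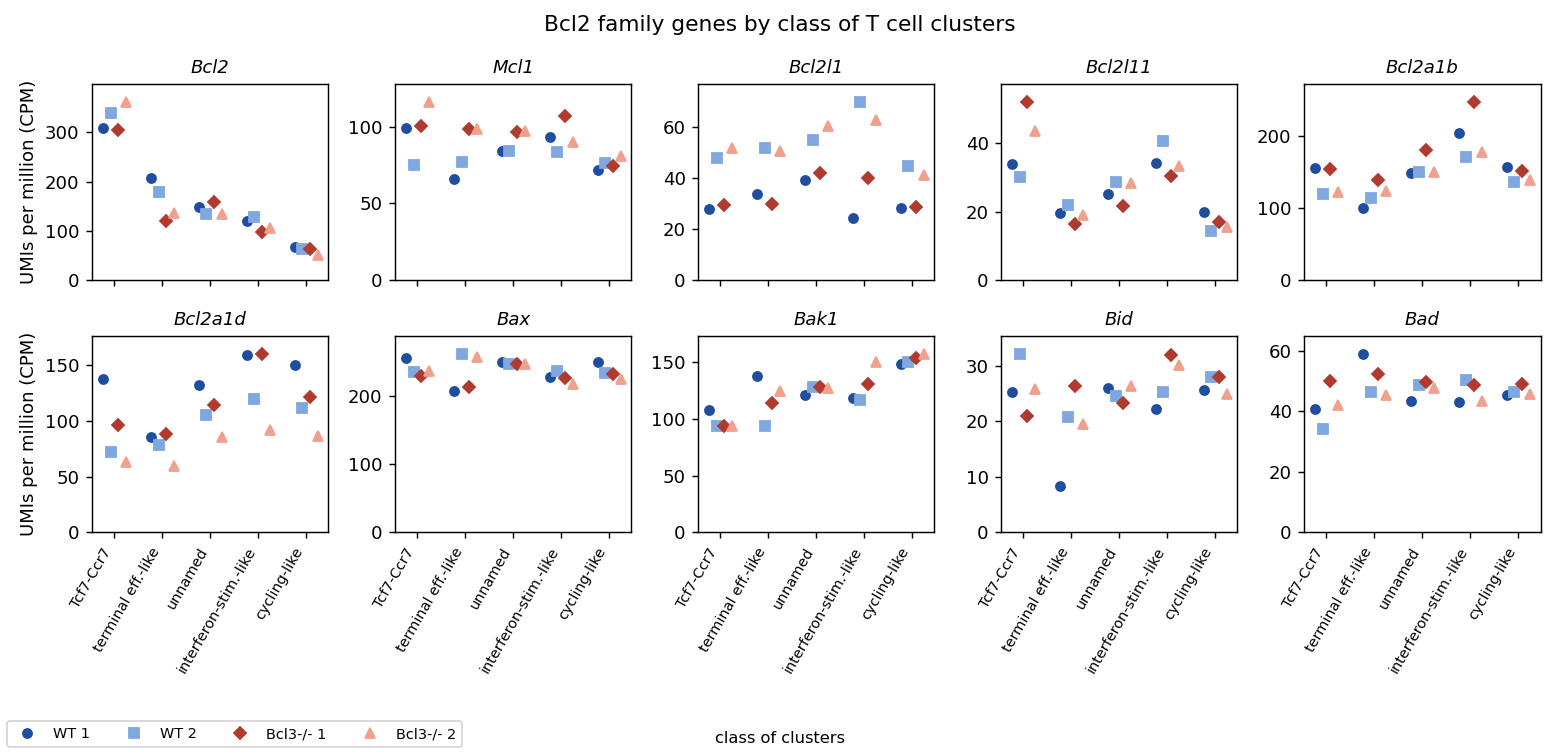
CPM (vertical axes, each from 0 and on its own scale) of the 10 genes in the 5 classes of T cell clusters (horizontal axes), with 1 point per library. *Bcl2* averages 329 CPM in the *Tcf7*-*Ccr7* clusters and 62.0 CPM in cycling-like cells, *Bak1* averages 97.3 and 152 CPM in the same classes, and *Bax* lies between 228 and 248 CPM on average.

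Across the 20 sums (5 classes in 4 libraries, log2 CPM centred per library), the genes whose pattern was most like a member were found among 4989 genes with a mean of at least 20 CPM. For *Bcl2* they were *Rabac1* (Pearson r = 0.97), *Chd3* (0.95) and *Sepp1* (0.95), for *Bcl2l11* *Evl* (0.93), *Cd82* (0.92) and *Polr1c* (0.92), for *Bcl2a1b* *Rgs1* (0.92), *Tap1* (0.91) and *Psmb10* (0.91), and for *Mcl1* *Mink1* (0.86), *Kmt2a* (0.85) and *Asxl2* (0.83). Among the members, r was 0.65 between *Bcl2* and *Bcl2l11*, 0.51 between *Bcl2* and *Mcl1*, -0.88 between *Bcl2* and *Bak1*, and 0.90 between *Bcl2a1b* and *Bcl2a1d*, which share sequence. The sums share libraries and depth, and these values describe likeness only.

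Within states, the question was whether the genotypes differ in cells of like state. Without the replicate block no member was called in any of the 5 classes, where 0.57% of the genes tested were called in the *Tcf7*-*Ccr7* clusters, 0.81% in terminal effector-like, 0.259% in cycling-like, 0.275% in interferon-stimulated-like and 0.193% in unnamed cells. With the block, 1 member was called in 1 class, *Bcl2* in terminal effector-like cells (4.51% of genes called), and none in the *Tcf7*-*Ccr7* clusters (1.26%), cycling-like (2.08%), interferon-stimulated-like (2.77%) or unnamed cells (5.28%).

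Terminal effector-like cells held less *Bcl2* in both *Bcl3*-/- libraries. *Bcl2* was at 206.5 and 178.9 CPM in WT1 and WT2 and at 119.8 and 136.6 CPM in KO1 and KO2, and the genotypes did not overlap. Over all cells such a lack of overlap held for 44.5% of the 11566 genes tested, and within classes its share was not counted. The log2 fold change of *Bcl2* was -0.62 ± 0.15 (SE), which did not pass the test (adjusted p = 0.0918), and -0.61 ± 0.13 (SE) with the replicate block, which did (adjusted p = 0.000148, edgeR with Benjamini-Hochberg adjustment). Within chimera 1 and chimera 2 the log2 ratios were -0.79 and -0.39. *Il7r* was also lower in these cells in both chimeras, at 54.8, 28.5, 21.3 and 7.08 CPM, and a link between the genes was not tested. Without the block, leaving out 1 library gave values from -0.49 to -0.77, of which the value without WT2 passed the test (-0.77, adjusted p = 0.00906). With the 4 libraries clustered together after integration, *Bcl2* was at 175.2, 138.3, 122.3 and 108.6 CPM in terminal effector-like cells and the difference was smaller (-0.46, adjusted p = 0.420, and 0.0276 with the block). The classes differ in make-up, since a WT1 cluster of 1118 cells led by *Klrg1* and *Cx3cr1* (143.0 CPM of *Bcl2*) met no list and stayed unnamed, whereas KO1 had 2 terminal effector-like clusters, and the part of this in the difference was not tested. At resolution 0.4 the terminal effector-like class of WT1 held 1759 cells. The difference there was -0.52 (adjusted p = 0.135, and 0.00289 with the block, edgeR). *Bcl2* was also lower in both chimeras in interferon-stimulated-like cells, at 119.7, 129.1, 96.9 and 106.2 CPM (log2 ratios -0.30 and -0.28, without overlap of the genotypes), and in cycling-like cells (-0.09 and -0.29), where neither fit called it (adjusted p = 0.378 and 0.474 with the block).

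*Mcl1* leaned the other way in the same cells, at 66.0, 77.2, 98.4 and 98.7 CPM. The genotypes did not overlap, with a log2 fold change of 0.41 ± 0.15 (SE) that did not pass the test (adjusted p = 0.337, and 0.156 with the block). It passed with the block when the libraries were clustered together (0.56, adjusted p = 0.0283). *Bcl2l11* was not higher there, at log2 ratios of -0.25 and -0.20 in chimeras 1 and 2. In the *Tcf7*-*Ccr7* clusters *Bcl2l11* was at 33.9 and 30.2 CPM in WT and 52.2 and 43.7 CPM in *Bcl3*-/- libraries, without overlap, and its log2 fold change of 0.57 ± 0.28 (SE) did not pass the test (adjusted p = 0.639, and 0.483 with the block). With the libraries clustered together the genotypes overlapped, at 30.6, 38.0, 34.8 and 41.0 CPM, and the log2 fold change was 0.17 (adjusted p = 0.876). *Bcl2* in those clusters had overlapping genotypes. The share of all genes whose genotypes did not overlap was not counted in either class.

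**Figure D4:**
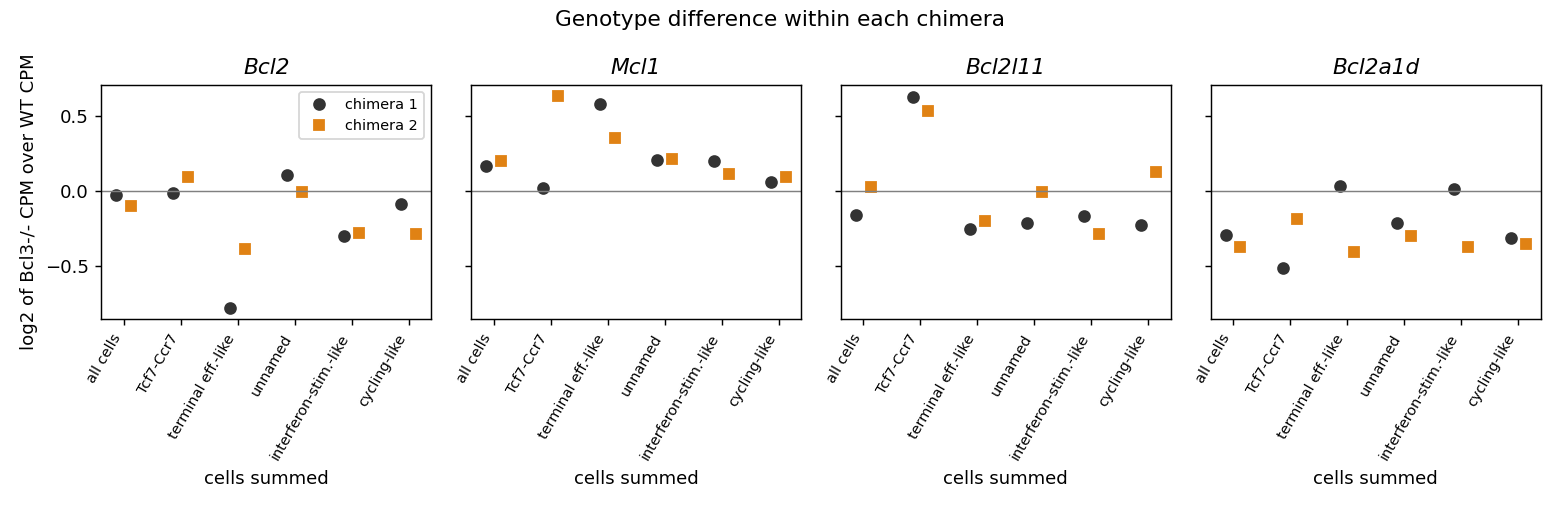
Log2 ratio of *Bcl3*-/- over WT CPM (vertical axis) within chimera 1 and within chimera 2 for *Bcl2*, *Mcl1*, *Bcl2l11* and *Bcl2a1d*, over all cells and in the 5 classes (horizontal axis), with 1 point per chimera and a line at 0. *Bcl2* is lowest in terminal effector-like cells (-0.79 and -0.39), and *Bcl2l11* is above 0 in both chimeras in the *Tcf7*-*Ccr7* clusters of this clustering (0.62 and 0.53).

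The difference between states was tested directly as a state by genotype interaction with library as a block. Between terminal effector-like cells and the *Tcf7*-*Ccr7* clusters no member was called and 0.234% of 7690 genes were, and the *Bcl2* difference was -0.65 ± 0.15 (SE) on the log2 scale (adjusted p = 0.0581). It ranged from -0.49 to -0.85 when 1 library was left out and passed the test without WT2 (-0.85, adjusted p = 0.00107). It was -0.53 (adjusted p = 0.202) when clusters were made with all variable genes and -0.35 (adjusted p = 0.715) with the libraries clustered together. The other 9 pairs of classes were added after the data were seen. Over all 10 pairs and 10 members, 1 of the 100 tests was called, *Bcl2* in unnamed against terminal effector-like cells (0.66 ± 0.13, SE, adjusted p = 0.0119, edgeR with Benjamini-Hochberg adjustment), where 0.402% of 10208 genes were called. *Bcl2* in unnamed cells was at 147.8, 135.0, 159.2 and 134.1 CPM, and the genotypes overlapped there. The call was lost without WT2 (0.70, adjusted p = 0.244), without KO1 (0.41, adjusted p = 0.422) and with the libraries clustered together (0.38, adjusted p = 0.511).

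Around the members, 3 lists of the same pathway were read: 15 other Bcl2 family genes, 25 genes of caspase activation and 19 survival receptors and regulators of the family. Of these 59 genes 56 passed the filter on low counts, and their median log2 fold change was 0.02. *Bcl2l10* and *Hrk* had no UMI and *Bok* had 5. Without the block 1 gene of the 56 was called higher and 1 lower in *Bcl3*-/- cells, where 0.363% of all genes were called. *Xiap*, an inhibitor of caspases, rose from 16.9 and 19.4 CPM to 29.98 and 37.2 CPM (log2 fold change 0.87 ± 0.12, SE, adjusted p = 0.0408), and *Jak3*, the kinase of the common γ chain through which IL-7 and IL-15 signal, fell from 57.3 and 54.6 CPM to 33.6 and 34.9 CPM (-0.73 ± 0.09, SE, adjusted p = 0.0354). The genotypes did not overlap for either gene, as in 44.5% of all genes tested. Leaving out KO2 took both over the threshold (adjusted p = 0.0952 for *Xiap* and 0.0634 for *Jak3*), and leaving out WT2, the non-T clusters or the filter on low counts did so for *Xiap* (0.0524, 0.0791 and 0.0515). DESeq2 gave adjusted p-values of 0.000339 for *Xiap* and 0.000137 for *Jak3*.

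With the replicate block 7 of the 56 were called, beside 9.65% of all genes. In addition to *Xiap* and *Jak3* these were *Jak1*, the partner kinase of *Jak3* (316, 347, 379 and 415 CPM, log2 fold change 0.24, adjusted p = 0.0344), *Pmaip1*, which encodes the BH3-only protein Noxa that binds Mcl-1 (39.5, 36.5, 46.7 and 54.2 CPM, 0.39, adjusted p = 0.0145), *Pim2*, a survival kinase (64.8, 126, 56.4 and 101 CPM, -0.28, adjusted p = 0.0288), and the remaining A1 copies *Bcl2a1a* (8.17, 9.89, 4.86 and 5.39 CPM, -0.83, adjusted p = 0.005) and *Bcl2a1c* (4.85, 2.50, 2.34 and 0.976 CPM, -1.18, adjusted p = 0.0108). *Bcl2a1a* came mostly from other cells, since 74.9% of its UMIs were in non-T clusters, where myeloid-like cells held 124.1, 145.9, 69.3 and 68.9 CPM and T cell clusters 3.0, 2.2, 1.3 and 1.3 CPM. The myeloid-like class of KO1 and KO2 also held a cluster led by *S100a9* and *Retnlg* (112 and 101 cells), which in WT1 and WT2 (42 and 32 cells) was under the size limit of 1% and left out, and its part in the lower values was not tested. With cells thinned to 1000 UMIs the blocked calls of *Bcl2a1a* (-0.23, adjusted p = 0.777), *Bcl2a1c* (-0.65, 0.446) and *Pmaip1* (0.34, 0.101) were lost, and that of *Pim2* was lost with at least 800 genes per cell (-0.27, 0.0522). The other family genes tested had means over the 4 libraries of 203 CPM (*Bnip3l*), 32.9 (*Bcl2l12*), 27.6 (*Bbc3*, which encodes Puma), 19.7 (*Bcl2l13*), 4.91 (*Bik*), 2.85 (*Bnip3*), 2.38 (*Bmf*), 1.46 (*Bcl2l2*) and 0.704 (*Bcl2l14*), and none of them was called in either fit. The most abundant genes of the caspase list were *Cycs*, encoding cytochrome c (254.8, 213.1, 210.4 and 204.4 CPM), and the mitochondrial channel genes *Vdac2* (209, 188, 204 and 190 CPM) and *Vdac3* (112, 106, 115 and 134 CPM), and those of the survival list beside *Jak1* were *Il2rg*, the common γ chain (344, 359, 309 and 301 CPM, -0.22, adjusted p = 0.0579 with the block), and *Pim1* (221, 325, 212 and 279 CPM). None of these 5 genes was called in either fit.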

How the data were processed

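The values deposited by the authors are UMI counts, not normalized, for each gene in each barcode, made with bcl2fastq 2.17 and Cell Ranger 2.2.0 on mm10 per the labels, and they include empty droplets. The annotation behind them is not given in the sources used here, and the labels give no age. Members and gene lists were chosen with earlier results of these data known.

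As in the methods, a cell was a barcode in which 500 or more genes were found and mitochondrial genes took no more than 10% of the UMIs, and genes in fewer than 2 cells were dropped. Each library was clustered with Seurat 5.3.0 (2000 variable genes without the Bcl2 family, 15 principal components, 20 neighbours, resolution 0.8), and clusters under 1% were left out. A cluster took a list's name when at least 3 markers were at least 2-fold up (mean per 10000 UMIs plus 0.1) in at least 10% of its cells and at least 1 was among its 10 leading genes, a rule chosen after clusters had been seen. The effector, CD4 T cell and erythroid lists named no cluster. The value of 1 marker gene is not reported here. No doublet caller was run.

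UMIs were summed per library, or per class where each library had at least 50 cells, and compared by the quasi-likelihood test of edgeR 4.0.16 (filterByExpr, TMM, Benjamini-Hochberg threshold 0.05) in R 4.3.3. Cells were never used as replicates, so p-values rest on 2 libraries per genotype. The fit without a block comes first, since the study's methods name no blocked test for these libraries, although both genotypes were sorted from the same animal. Numbers pair the libraries because the labels give the same chimera, 1 animal, for the WT and the *Bcl3*-/- library of a number. The difference between the WT libraries had a Pearson r of 0.291 with that between the *Bcl3*-/- libraries, across 6863 genes over 10 CPM, which are not independent replicates. The blocked fit has 1 residual degree of freedom among libraries before edgeR's moderation. On simulated counts of the all-cell comparison with 200 changed genes, 70.5% of 2-fold and 92.5% of 4-fold changes were recovered (67% and 92.5% with the block) among 11574 and 11584 genes tested. The simulated counts had the same fixed dispersion for every gene and no difference between the chimeras. They therefore cannot give the recovery in the real libraries or show what the block changes there.

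Named genes were the members, the tested genes of the other family list, and from the caspase and survival lists those called in either fit plus the 3 most abundant. Likeness was the Pearson correlation of log2(CPM + 1), for *Bcl2*, *Mcl1*, *Bcl2l11* and *Bcl2a1b* only. Positions and sequences come from GENCODE vM21 (GRCm38), where 27645 of the 27998 identifiers matched and 353 did not. Python 3.11.15, numpy 2.4.6, scipy 1.17.1 and Biopython 1.88 were used. Alternatives were DESeq2 1.42.0, RLE size factors, no filter, each library left out, T cell clusters only, at least 800 genes, at most 5% mitochondrial UMIs, equal cells thinned to 1000 UMIs, resolution 0.4, all variable genes, and joint clustering. Combinations of these with the block, the chimera comparison and 9 of the state pairs were added after the data were seen.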

Additional observations from a re-analysis of the deposited data

Results flagged for a closer look

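The genotype difference of *Bcl2* differed between unnamed and terminal effector-like clusters, by 0.66 ± 0.13 (SE) on the log2 scale (adjusted p = 0.0119, edgeR interaction test with Benjamini-Hochberg adjustment). Within chimeras 1 and 2 the log2 ratio of *Bcl3*-/- over WT was -0.79 and -0.39 in terminal effector-like cells and 0.11 and -0.01 in unnamed cells. The pair was 1 of 10 examined, and the result was not past the threshold without WT2 (adjusted p = 0.244), where its size was 0.70, or without KO1 (0.422) or with the libraries clustered together (0.511), where it was smaller, at 0.41 and 0.38.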

How the results depend on the processing

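Most calls depended on the replicate block. Over all cells, no member was called in the fit without it, and 1 with it (*Bcl2a1d*), also 1 in T cell clusters only, 1 with at least 800 genes per cell and 1 with at most 5% mitochondrial UMIs, and 2 when equal cells were thinned to 1000 UMIs (*Bcl2a1d* and *Mcl1*). Genes called numbered 42 without the block, 195 by DESeq2 and 40 to 228 when 1 library was left out, and with the block 1116, or 1242, 818, 872 and 666 under the same 4 choices of cells. Pathway genes called numbered 2, or 1 with no filter (*Jak3*), 1 in T cell clusters only and 0 to 3 without 1 library, and with the block 7, or 8, 6, 7 and 4. In T cell clusters only, leaving out 1 library gave 0 to 1 pathway genes and 30 to 113 genes in all. Within states, no member was called without the block when all 4 libraries were used. With the block 1 was called, or 3 at resolution 0.4, 2 with all variable genes and 5 with the libraries clustered together. At resolution 0.4 these were 2 in terminal effector-like (6.46% of genes called) and 1 in unnamed cells (3.94%). With all variable genes they were 1 in terminal effector-like (3.63%) and 1 in unnamed cells (5.04%). With joint clustering they were 3 in terminal effector-like (2 of them higher, 3.38%), 1 in cycling-like (4.53%) and 1 in unnamed cells (7.08%). Without 1 library and without the block, *Bcl2* in terminal effector-like cells ranged from -0.49 to -0.77. In the interaction of terminal effector-like cells against the *Tcf7*-*Ccr7* clusters, the *Bcl2* difference ranged from -0.49 to -0.85 without 1 library. Between chimeras 2 members were called, and 0 without the genotype term. Apart from fits with 1 library left out, the other settings changed no call of a member between genotypes.

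Several small log2 fold changes over all cells changed sign, none of them called. Without 1 library they ranged from -0.20 to 0.024 for *Bcl2*, -0.19 to 0.32 for *Bcl2l1*, -0.12 to 0.21 for *Bcl2a1b*, -0.0056 to 0.071 for *Bak1*, -0.017 to 0.055 for *Bid* and -0.024 to 0.13 for *Bad*, and were -0.040 for *Bak1* after thinning and -0.00033 for *Bid* in T cell clusters only. The cause was not tested. *Bcl2a1d* kept its sign, from -0.66 (without KO1) to -0.079 (without KO2). With joint clustering the class with the highest mean changed for *Bcl2l11*, *Bcl2a1d*, *Mcl1* and *Bid*, and the *Bcl2l11* difference in the *Tcf7*-*Ccr7* clusters was 0.17 in place of 0.57. Terminal effector-like and unnamed cells also changed places in the *Bcl2* order. Levels moved by 1 SD or more in 0 of 50 comparisons with all variable genes, 1 of 50 with joint clustering and 1 of 40 at resolution 0.4. There KO1 had no *Tcf7*-*Ccr7* cluster, so that class and its interaction have no value. Within states, n = 2 per genotype and small sums, such as 6 UMIs of *Bid* in the terminal effector-like cells of WT1, limit what can be called.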

Other observations

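Cells of other types in the sorted libraries had their own mixture of the family. B cell-like clusters (105, 119, 134 and 127 cells) held *Bcl2* at 263.1, 187.5, 249.4 and 217.6 CPM, between the *Tcf7*-*Ccr7* clusters and unnamed T cells, and *Mcl1* at 187.1, 194.2, 179.7 and 228.4 CPM, above every T cell class in each library. Myeloid-like clusters (116, 147, 224 and 215 cells) held *Mcl1* at 204.5, 212.6, 209.8 and 207.5 CPM and *Bcl2* at only 60.9, 42.7, 43.2 and 39.8 CPM. *Bcl2a1b* in them was at 289.5, 284.5, 241.3 and 201.7 CPM, lower in both *Bcl3*-/- libraries, where the class also held a cluster led by *S100a9* and *Retnlg* that was under the size limit of 1% in WT, whose part in the difference was not tested. The plasma cell-like cluster of WT1 (50 cells) held *Bcl2l11* at 198.3 CPM, from 77 UMIs, where T cell classes of WT1 lay between 19.7 and 34.1 CPM. These values have no test.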
